A study of Mus musculus with 2 samples.

Results

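The T-committing barcodes of the embryonic thymus were 189 of 5187 barcodes that passed the cell filters (3.64%, exact binomial interval 3.15 to 4.19%), in a table of 6057 barcodes. They were chosen by measured levels: at least 400 CPM of Cd3g, at least 150 CPM of Myb, under 600 CPM of Cd3d and fewer than 3 unique molecular identifiers (UMIs) of Cd8b1. CPM is a gene's UMIs per 1000000 UMIs, within 1 barcode for this choice and over the summed UMIs of a group in the levels below. A passing barcode held at least 500 genes, at most 10% mitochondrial UMIs and at most 1 UMI of Krt8, Krt18 and Prss16 together. Cd3g and Cd3d encode chains of the CD3 complex, through which the T cell receptor signals, and Myb encodes a transcription factor of lymphoid progenitors. Cd8b1 encodes a chain of the CD8 co-receptor of later thymocytes.

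Single-cell RNA was measured in CD4 and CD8 double-negative 1 (DN1) cells sorted by flow cytometry from the embryonic thymus of 5x polychromILC mice, with 10x 3' v3 chemistry. The samples are E15.5_DN1 and E19.5_DN1, named for their embryonic day, with 1 library each, and mice of both stages carry the same set of reporters. The extraction label describes a lysis that gives nuclei, so whether cells or nuclei were loaded cannot be told apart. Barcodes carry suffix 1 or suffix 2, and since no label ties a suffix to a stage, the stages were not compared and values of both suffixes are given side by side. There is no replicate and no test, and the 95% intervals of values, ratios and shares cover counting error only. Because the members were chosen by genes measured in these same barcodes, every difference is a description.

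T cell commitment in the thymus starts from progenitors that still express stem cell and myeloid regulators such as Spi1, which encodes PU.1. Under Notch signals these cells turn on Tcf7 and Gata3, and at the DN2 stage they turn on Bcl11b, which closes off other fates. CD3 chains, the recombinase genes Rag1 and Rag2, and Ptcra, the partner of the first receptor beta chain, come up through DN2 and DN3, while Spi1 and related regulators are shut down.

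The sequences before 3 genes of the programme are shown because Bcl11b, Cd3e and Fbp1 are genes that the limits for membership did not use and that were higher in the members. Bcl11b lies on the minus strand of chromosome 12, at 107910403 to 108003602 of GRCm38, Cd3e on the minus strand of chromosome 9, at 44998740 to 45009627, and Fbp1 on the minus strand of chromosome 13, at 62864753 to 62888282. Each sequence comes from the 250 bases before the RefSeq start (GRCm38.p6), without bases that GENCODE vM21 places inside the gene, and is written 5′ to 3′ on the gene's strand. Capitals mark a match on either strand to CAGCTG or CACCTG, forms of the E box that E proteins bind, or to TGTGGT, the core bound by RUNX factors.
Bcl11b, chr12:108003603-108003664, minus strand: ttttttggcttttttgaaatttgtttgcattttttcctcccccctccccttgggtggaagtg
Cd3e, chr9:45009628-45009861, minus strand: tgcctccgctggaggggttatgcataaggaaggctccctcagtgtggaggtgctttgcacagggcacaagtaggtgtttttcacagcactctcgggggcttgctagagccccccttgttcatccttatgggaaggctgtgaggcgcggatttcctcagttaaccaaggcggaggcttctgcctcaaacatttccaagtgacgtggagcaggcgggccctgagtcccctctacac
Fbp1, chr13:62888283-62888532, minus strand: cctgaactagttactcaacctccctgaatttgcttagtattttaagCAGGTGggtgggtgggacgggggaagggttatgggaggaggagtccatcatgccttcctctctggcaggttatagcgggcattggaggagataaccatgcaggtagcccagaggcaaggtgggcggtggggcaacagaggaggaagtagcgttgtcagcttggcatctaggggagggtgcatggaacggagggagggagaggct
In the Fbp1 window the match is CAGGTG, which is CACCTG on the other strand. Of 32536 windows of 250 bases before other starts, 17.3% held CACCTG and 13.1% held CAGCTG on either strand. None of these letters was found in the 62 bases before Bcl11b, where 4.56% of windows of that length held CACCTG, or in the 234 bases before Cd3e, where 16.3% did.

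Suffix 1 held 145 of the members among 1884 passing barcodes (7.70%, 6.53 to 8.99%), and suffix 2 held 44 among 3303 (1.33%, 0.970 to 1.78%). Members were deeply sequenced, with a median of 39638 UMIs (range 781 to 84040) and 5545 genes, against a median of 13801 UMIs in the other passing barcodes. Passing barcodes held 35047793 UMIs in suffix 1 and 59820202 in suffix 2. The 2 suffixes shared 25 barcode sequences, and 9 members of suffix 1, with 60942 to 72879 UMIs each, had a partner of 503 to 576 UMIs in suffix 2 that did not pass. Scrublet, a doublet caller, marked 15 members, 2 in suffix 1 and 13 in suffix 2, and none was removed.

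Most members held the genes of the label, and a minority did not. Bcl11b was detected in 143 of 189 members (75.7%), against 112 of 857 Cd3g-low barcodes (13.1%, median 30314 UMIs), which are introduced below, and Cd3e was detected in 143 members. Genes of natural killer (NK) cells split the members into separate sets: 127 held no UMI of Ncr1, Klrb1c, Klrd1, Tbx21, Eomes, Gzmc or Xcl1, 23 held 1 or 2, and 39 held 3 or more. Bcl11b was detected in 137 of the 150 members under 3 such UMIs and in 6 of the 39 others. This split was chosen after the values were seen. Levels below are of all 189 members unless the 150 are named, and list results against the Cd3g-low barcodes are given for both.

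**Figure D1:**
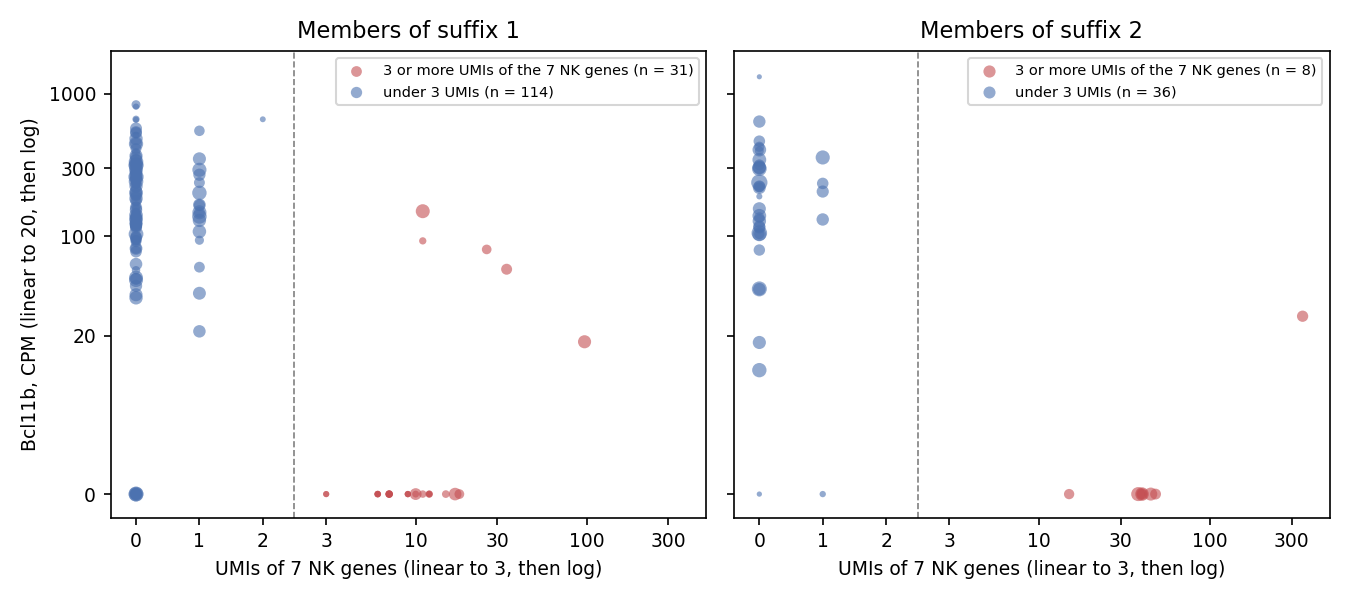
Each point is a T-committing barcode, with suffix 1 and suffix 2 in separate panels, UMIs of the 7 NK genes on the x axis, Bcl11b CPM on the y axis and mark size growing with total UMIs. Barcodes with 3 or more NK UMIs (31 in suffix 1, 8 in suffix 2) mostly lie at 0 CPM of Bcl11b, while those under 3 (114 and 36) mostly lie above 0.

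The 39 members with NK genes differed from the other 150 in many genes at once. Of 5213 genes measured, 195 were at least 2-fold higher in them (3.74%) and 187 at least 2-fold lower (3.59%). Xcl1, which encodes a chemokine of NK cells and belongs to the split, had 295 and 1231 CPM in the NK-gene members of suffix 1 and 2, against 2.20 and 1.90 CPM in the others. Tyrobp, an adaptor of activating receptors, had 861 and 1183 CPM in the NK-gene members, against 65.1 and 59.6 CPM, a log2 ratio of 3.96 (3.79 to 4.14). Id2, a repressor of E proteins needed for innate lymphoid fates, had 171 and 185 CPM, against 28.4 and 28.5 CPM. Both suffixes showed these differences in the same direction.

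The T cell genes ran the other way. Bcl11b had 31.0 and 2.99 CPM in the NK-gene members, against 193 and 211 CPM in the others, a log2 ratio of -3.34 (-4.15 to -2.63). Cd3e had 28.9 and 0 CPM, against 136 and 109 CPM. The 13 measured genes of the DN2/DN3 markers included 10 at least 2-fold lower in the NK-gene members, with a median log2 ratio of -1.99, against -0.11 over all genes. As a group the NK-gene members therefore go against the label, and they are called NK-gene members here.

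Depth and epithelial RNA moved with this split. Of the 31 NK-gene members of suffix 1, 24 had 5143 to 13044 UMIs, Bcl11b was detected in 1 of them, and 9 held 1 UMI of the epithelial genes. At the lowest of these depths 1 UMI of Myb met the limit of 150 CPM. Several of the 24 entered so, from the member of 5143 UMIs, with 194 CPM, to that of 6569 UMIs, with 152 CPM. In these 24, Xcl1 had 442 CPM, Tyrobp 1289 CPM and Gzma 2042 CPM. The 263 barcodes of suffix 1 that the epithelial limit removed had 313 CPM of Xcl1, 840 CPM of Tyrobp and 1358 CPM of Gzma. Without that limit 22 more barcodes would be members, 19 of them of suffix 1 and 12 with NK genes. The other 7 NK-gene members of suffix 1 had 24787 to 60146 UMIs. Bcl11b was detected in 4 of these 7, with 49.1 CPM over their summed UMIs. All 8 NK-gene members of suffix 2 had at least 27199 UMIs, and Scrublet marked 7 of the 8. The part of these values in the result was not tested.

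The levels of the genes that chose the members spread widely. Cd3g had 401, 1310 and 4508 CPM at the lowest, median and highest member, with a median of 1442 CPM in suffix 1 and 1042 CPM in suffix 2. Myb had 150, 300.1 and 1280 CPM, the highest in a member of only 781 UMIs, where few UMIs give a large CPM. Cd3d had 0, 43.3 and 570 CPM and was above 0 in 130 members. Near the limit, the 12 members with 400 to 500 CPM of Cd3g had 112 CPM of Bcl11b and 79.7 CPM of Spi1. The 23 barcodes with 300 to 400 CPM that met every other limit had 180 CPM of Bcl11b and 43.8 CPM of Spi1. Each set held 3 barcodes with NK genes, and Bcl11b was not lower just outside the limit.

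Genes outside the rule varied among members as well. Bcl11b had 0, 130 and 1313 CPM at the lowest, median and highest member, and Cd3e, another CD3 chain, had 0, 79.8 and 570 CPM. Tcf7, which encodes the Notch-induced factor TCF-1, was detected in 180 members and had 0, 281 and 1313 CPM. Fbp1, which encodes an enzyme of gluconeogenesis, was above 0 in 109 members, with 0, 36.4 and 385 CPM. Spi1 was above 0 in 107 members and reached 661 CPM, from 3 UMIs in a barcode of 4540 UMIs. The highest Bcl11b and Tcf7 levels were both in 1 barcode of 1523 UMIs, so these maxima rest on few UMIs. Rag1 was above 0 in 76 members, and its median was 0.

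The members were set against 857 barcodes with as much Myb but under 100 CPM of Cd3g and fewer than 3 UMIs of Cd8b1, to ask what else differs between the Cd3g-high and Cd3g-low sides of the Myb-high cells. Myb, the shared gene of the choice, was at 339 CPM in the members and 332 CPM in the Cd3g-low barcodes. Mitochondrial UMIs had medians of 2.77% in members and 3.04% in Cd3g-low barcodes. Of 7120 genes with a mean of at least 10 CPM, 115 were at least 2-fold higher in the members (1.62%) and 141 at least 2-fold lower (1.98%), with a median log2 ratio of 0.02 over all genes. For the 150 members without NK genes the counts were 114 higher (1.6%) and 181 lower (2.54%), and 101 of the 115 and 140 of the 141 genes past 2-fold were past it in the 150 as well. Suffix 1 supplied 145 of the 189 members but 257 of the 857 Cd3g-low barcodes, so levels are given within each suffix.

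Genes of the pre-T cell receptor and of recombination were higher in the members. Of 28 listed genes 19 passed the level filter, which a gene can pass through the members alone, and 11 of them were at least 2-fold higher and none lower, with a median log2 ratio of 1.65 (2.28 in suffix 1, 1.39 in suffix 2). Among the 11 are Cd3g and Cd3d, which the rule used. The 150 members gave 11 and a median of 1.79. Of the remaining 8, Lck, the kinase that starts receptor signalling, had 257 and 232 CPM in members of suffix 1 and 2, against 154 and 162 CPM in Cd3g-low barcodes.

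Cd3e had 126 and 90.0 CPM in members of suffix 1 and 2, against 0.891 and 1.11 CPM in Cd3g-low barcodes, a log2 ratio of 6.79 (6.25 to 7.39). Thinned to 6000 UMIs, 45.0% of members and 0.483% of Cd3g-low barcodes held a Cd3e UMI. Rag1 had 31.8 and 16.2 CPM in members, against 2.67 and 1.96 CPM. Rag1 was thus higher in members of both suffixes, with a pooled log2 ratio of 3.66 (3.23 to 4.11), above that within either suffix. For Rag2 the gap was wide in suffix 1 and narrow in suffix 2, with 41.6 and 17.8 CPM in members, against 8.53 and 12.3 CPM. Ptcra had 27.4 and 4.71 CPM in members, against 0.509 and 0.637 CPM.

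Some signalling genes of the same list were also higher, while Fyn, Lcp2, Plcg1, Cd27 and Xrcc6 had ratios under 1, none of them by 2-fold. Thy1, which encodes a T-lineage surface protein, had 127 and 117 CPM in members, against 11.5 and 10.3 CPM. Lat, the adaptor downstream of the receptor, had 191 and 199 CPM, against 82.3 and 76.3 CPM. Themis, a regulator of receptor signal strength in thymocytes, had 36.4 and 18.3 CPM, against 4.46 and 2.33 CPM. Il2ra, which encodes CD25 and marks DN2 and DN3 cells, was at 119 and 232 CPM in members and at 85.3 and 90.2 CPM in Cd3g-low barcodes, past 2-fold in suffix 2.

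Among T-lineage regulators 3 genes passed 2-fold. Of 19 measured of 23 listed, Bcl11b, Lef1 and Ets1 were at least 2-fold higher in members and none was 2-fold lower, with a list median of 0.03 (-0.23 to 0.80) against 0.02 for all genes. The 150 gave the same count and a median of 0.10. Bcl11b had 177 and 174 CPM in members of suffix 1 and 2, against 19.2 and 17.1 CPM in Cd3g-low barcodes, a log2 ratio of 3.31 (3.16 to 3.47). Lef1, a partner of TCF-1, had 30.8 and 18.8 CPM, against 0.382 and 0.584 CPM. Ets1, an activator of receptor genes, had 41.4 and 77.4 CPM, against 10.1 and 14.9 CPM.

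The genes that act earlier differed by under 2-fold over both suffixes. Tcf7 had 321 and 298 CPM in members, against 240 and 193 CPM in Cd3g-low barcodes, a log2 ratio of 0.60 (0.53 to 0.68). Gata3 had 59.1 and 54.9 CPM, against 46.0 and 28.0 CPM. Tcf12, which encodes the E protein HEB, had 91.9 and 94.2 CPM, against 51.2 and 53.3 CPM. Runx1, which acts before and after commitment, was at 206 and 237 CPM in members and at 186 and 219 CPM in Cd3g-low barcodes. Its pooled log2 ratio of 0.03 (-0.05 to 0.12) was below that within either suffix.

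In the Notch pathway 11 of 19 genes were measured, with a median of -0.16 and 1 gene past 2-fold. In the 150, 2 of 12 were past it, Dtx1 and Notch3, with a median of -0.09. Dtx1, a Notch target, was higher in suffix 1 alone: 58.9 and 8.37 CPM in members of suffix 1 and 2, against 29.0 and 10.0 CPM. Notch1 was at 147 and 144 CPM in members and at 118 and 152 CPM in Cd3g-low barcodes. Hes1, another target, was at 141 and 103 CPM, against 110 and 113 CPM. The receptor gene Notch3, just under the level filter with all members, had 12.7 and 14.1 CPM, against 3.82 and 7.59 CPM.

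Stem and progenitor regulators were lower in the members. Of 23 listed, 16 passed the level filter, some through the Cd3g-low barcodes alone, as Hoxa7, Hoxa9 and Gfi1b did. For such genes a ratio under 1 was fixed in advance. All 16 had a ratio under 1, where 52.9% of all genes had one above 1. At least 2-fold lower were 11, with a median log2 ratio of -1.64 (-1.56 in suffix 1, -1.25 in suffix 2). In the 150 members without NK genes 12 of 16 were at least 2-fold lower, with a median of -1.80. Spi1 had 31.4 and 44.5 CPM in members of suffix 1 and 2, against 134 and 140 CPM in Cd3g-low barcodes, a log2 ratio of -1.98 (-2.17 to -1.79). Mef2c, a myeloid and lymphoid progenitor factor, had 13.5 and 31.9 CPM, against 110 and 134 CPM. Bcl11a, the relative of Bcl11b that is active in progenitors, had 47.5 and 47.1 CPM, against 133 and 152 CPM. The gene of the stem cell surface protein CD34 had 31.8 and 32.4 CPM, against 105 and 142 CPM.

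These genes were lower to different degrees. Hhex, a progenitor homeobox factor, had 35.6 and 52.3 CPM in members, against 110 and 134 CPM. Kit, the stem cell factor receptor, had 32.2 and 50.8 CPM, against 73.2 and 95.2 CPM. Lyl1, another progenitor factor gene, had 88.3 and 86.9 CPM in members and 134 and 129 CPM in Cd3g-low barcodes, a log2 ratio of -0.57. Lmo2 and Flt3, both expressed in the earliest progenitors, were the lowest of those named here, Lmo2 at 1.15 CPM in members against 17.0 CPM and Flt3 at 0.721 against 10.6 CPM.

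Myeloid genes that passed the same filter were lower too, 4 of 9 by 2-fold or more, with a median of -0.91 (-1.08 in suffix 1, -0.50 in suffix 2). In the 150, 5 of 9 were, with a median of -1.21. Mpo, which encodes myeloperoxidase, had 7.76 and 57.6 CPM in members, against 115 and 177 CPM in Cd3g-low barcodes. In the 150 members it had 4.18 and 23.5 CPM. The myeloid list as a whole summed to 594 and 783 CPM in members of suffix 1 and 2, against 1027 and 1131 CPM in Cd3g-low barcodes, with 4 of its 23 genes at 0 in members. Of the erythroid markers, Alas2 was at 0 and the list summed to 384 and 319 CPM in members, against 893 and 556 CPM. Hbb-bt gave 2525 of the 2541 UMIs of this list in members, so the sum is mainly the level of that gene. In the Cd3d-high and Cd8b1 barcodes described below the list summed to 24.8 and 18.8 CPM. The part of free RNA in these results was not tested.

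Genes outside these lists had large ratios as well. Gzma, which encodes granzyme A, had 2222 and 433 CPM in members of suffix 1 and 2, against 341 and 57.8 CPM in Cd3g-low barcodes. Its pooled log2 ratio of 3.62 (3.56 to 3.67) was above that within either suffix. After thinning, 90.6% of members, 19.3% of Cd3g-low barcodes and 95.5% of the Cd3d-high barcodes described below held a Gzma UMI. Akr1c13, which encodes an aldo-keto reductase, had 844 and 223 CPM in members, against 108 and 19.3 CPM. Rgcc, a regulator of the cell cycle, had 361 and 223 CPM, against 36.5 and 34.2 CPM. All 3 were higher in members of both suffixes, which the rule for naming these genes required.

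Tubb2b, a tubulin gene, had 73.4 and 39.8 CPM in members, against 8.28 and 1.91 CPM, and Mcub, a subunit of the mitochondrial calcium channel, 59.5 and 49.2 CPM, against 0.255 and 1.27 CPM. Bcl2, an inhibitor of cell death, had 68.4 and 78.0 CPM, against 18.3 and 20.9 CPM. The markers Khdc1a and Fbp1 were higher as well. Khdc1a had 239 and 58.6 CPM in members, against 59.5 and 18.2 CPM in Cd3g-low barcodes. Fbp1 had 86.9 and 50.8 CPM, against 15.9 and 9.34 CPM. The pooled log2 ratio of Fbp1, 2.77 (2.56 to 2.98), was above that within either suffix.

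Some large ratios came from few barcodes. Xcl1 had a pooled log2 ratio of 5.63, but 53.9% of its UMIs in members were in 1 barcode, and in the 150 members it was at 2.12 CPM, against 1.65 CPM in Cd3g-low barcodes. Ccl5, a chemokine gene, was at 97.1 CPM in the 150 members, and at 50.6 CPM without the 1 barcode that held 48.0% of its UMIs. Lgals3, which encodes galectin 3, was at 37.3 CPM in the 150, and at 16.5 CPM without its top barcode. Of the NK/ILC1 markers 5 of 7 measured were at least 2-fold higher in all members, with a median of 2.88, and 1 of 4 in the 150. Xcl1, Klrd1 and Gzmc, among the 7, belong to the NK-gene split. Their low levels in the 150, and the smaller number measured there, were thus fixed in advance.

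**Figure D2:**
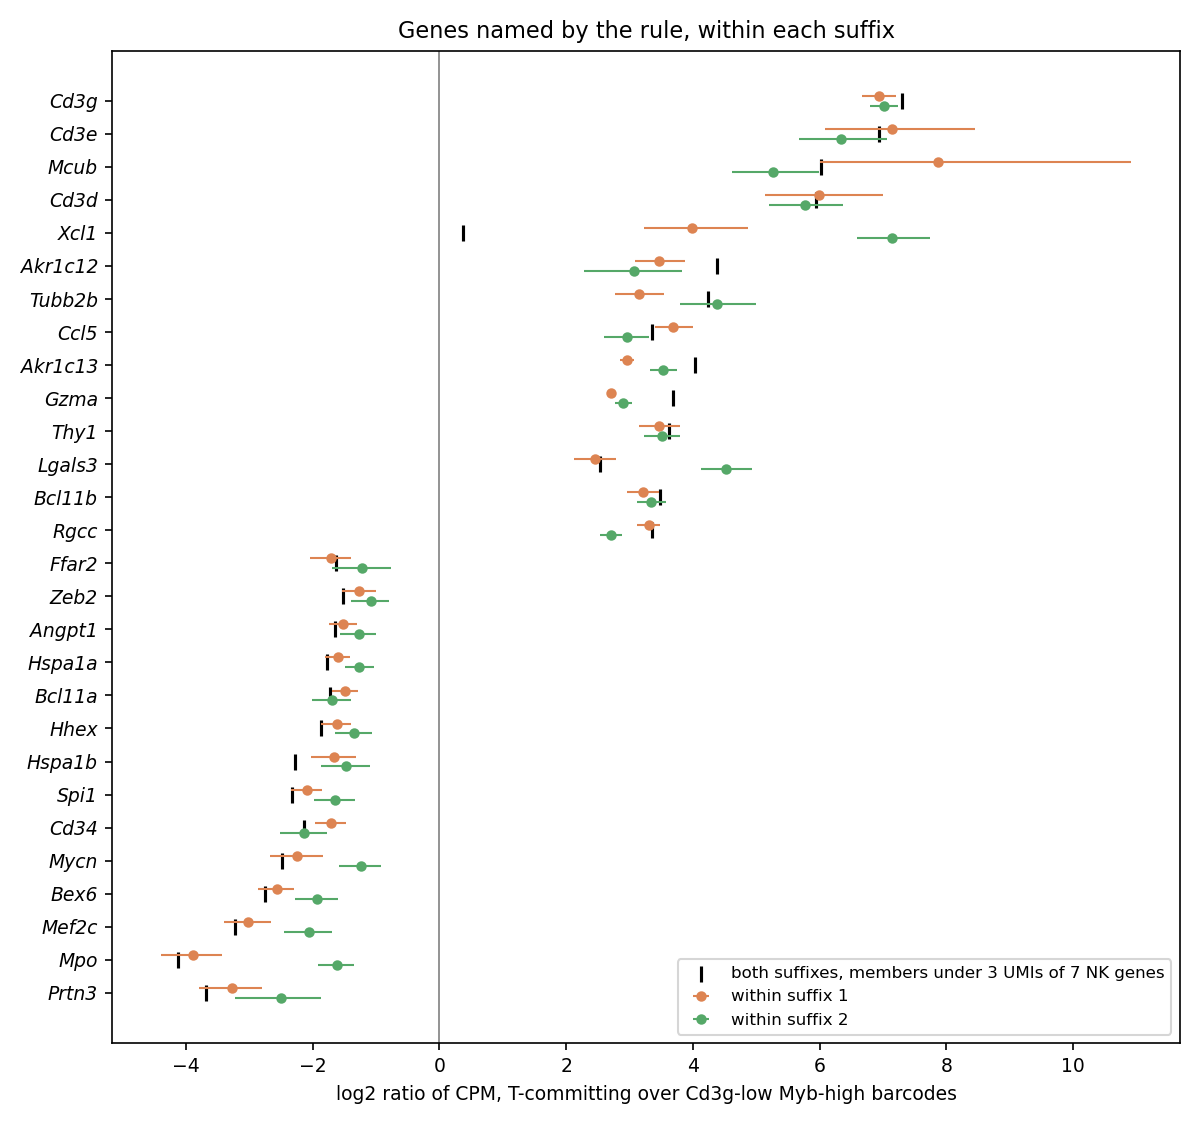
The x axis is the log2 ratio of CPM in T-committing over Cd3g-low Myb-high barcodes for 28 genes, within suffix 1 and within suffix 2, with bars for 95% counting intervals and a tick for the members under 3 NK UMIs. T cell genes lie right of 0 and progenitor genes left of it. The 28 genes were picked for the same direction within both suffixes, so that agreement was fixed in advance. The tick of Xcl1, a gene of the NK-gene split that keeps its level low, lies near 0.

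Cell cycle genes were modestly higher in the members. Of 52 G2/M genes 51 were measured and all 51 had a ratio above 1 (all genes, 52.9%), with a median log2 ratio of 0.60 (0.32 in suffix 1, 0.76 in suffix 2). Ube2c, a ligase component active at mitosis, had 557 and 651 CPM in members, against 344 and 224 CPM, and was the 1 gene past 2-fold. S phase genes had a median of 0.14 over 44 genes and none past 2-fold. In the 150 the medians were 0.68 for G2/M and 0.20 for S phase genes. At 6000 UMIs per barcode, the median number of G2/M UMIs was 41 and 53 in members of suffix 1 and 2, against 38 and 21 in Cd3g-low barcodes. The gap was the smaller in suffix 1. For members without NK genes the medians were 48 and 62.

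Interferon response genes were lower in members, 5 of 8 measured by 2-fold or more, with a pooled median of -1.52 but -0.75 in suffix 1 and -0.84 in suffix 2. In the 150, 6 of 8 were, with a median of -1.68. Isg15 had 21.5 and 61.7 CPM in members, against 46.6 and 116 CPM in Cd3g-low barcodes. Of the immediate early and stress genes, 6 of 12 were at least 2-fold lower, with a median of -0.72 (-0.49 and -0.70 within suffixes), and 6 of 12 in the 150, with a median of -0.85. The stress-responsive factor gene Jun had 184 and 277 CPM in members, against 362 and 607 CPM. Igf2bp1, a fetal RNA-binding protein gene, had a pooled log2 ratio of 1.25, yet it was at 60.9 and 4.19 CPM in members and at 53.2 and 4.77 CPM in Cd3g-low barcodes. For Igf2bp1 the pooled ratio did not appear within either suffix.

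Transcripts of 4 reporters were counted as well. TdTomato, the Bcl11b reporter, had 6.17 and 7.85 CPM in members, against 0.637 and 0.796 CPM in Cd3g-low barcodes. The Rora reporter mTeal had 9.35 and 6.28 CPM, against 2.93 and 1.59 CPM, and hCD2, the Gata3 reporter, 24.9 and 27.7 CPM, against 20.8 and 13.8 CPM. tagBFP, the Id2 reporter, had 729 CPM in NK-gene members and 59.1 CPM in the other members, against 42.6 CPM in Cd3g-low barcodes.

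Between the Cd3g limits lay 82 barcodes with 100 to 400 CPM of Cd3g, 72 of them without NK genes. Suffix 2 held 40 of these 72, 36 of the 150 members and 594 of the 848 Cd3g-low barcodes without NK genes. The levels of the bands are pooled over the suffixes, and the part of this mix in them was not tested. Taking barcodes without NK genes alone, Bcl11b, Cd3e, Rag1, Spi1 and Mef2c were graded over the 3 bands of Cd3g. Bcl11b was at 198 CPM in the 150 members, 118 CPM in the 72 between the limits and 17.9 CPM in the Cd3g-low barcodes. Cd3e was at 129, 22.1 and 1.06 CPM in the same order, and Rag1 at 30.7, 7.77 and 2.16 CPM. Spi1 ran the other way, at 27.5, 69.2 and 139 CPM, as did Mef2c, at 13.6, 50.9 and 126 CPM.

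Not every gene followed that order. Tcf7 was at 325 CPM in the 150 members and 318 CPM between the limits, against 208 CPM in Cd3g-low barcodes, and Gata3 at 61.4 and 65.7 CPM, against 33.4 CPM. Il2ra was highest between the limits in these pooled levels, at 165 CPM in members and 197 CPM between the limits, against 89.3 CPM. Its level in members differed between the suffixes, as given above, so this order may not hold within a suffix. Icos, a co-stimulatory receptor gene also used as a marker of group 2 innate lymphoid cells, was at 15.7 and 62.9 CPM, against 4.78 CPM. Scrublet marked 11 of the 72, against 7 of the 150 members, and the part of doublets in these levels was not tested.

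**Figure D3:**
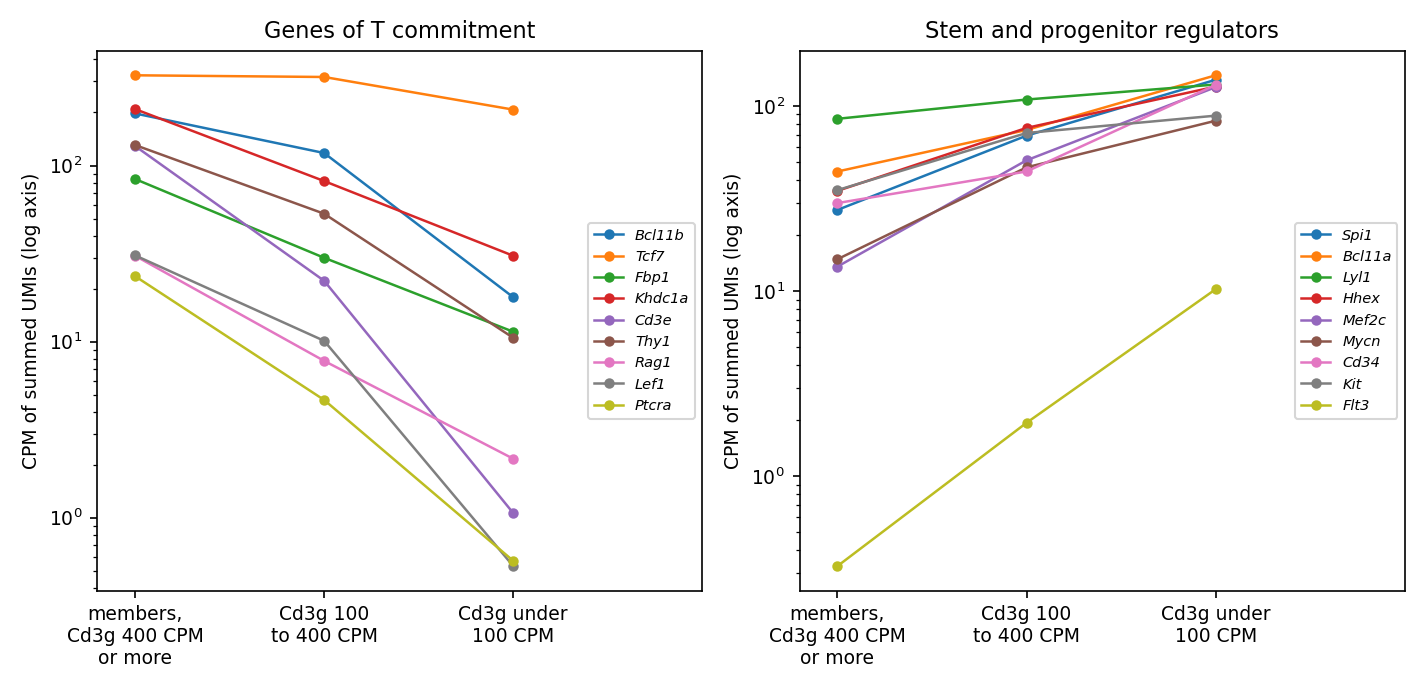
CPM on a log axis for T commitment genes and for stem and progenitor regulators in members, barcodes with 100 to 400 CPM of Cd3g and barcodes under 100 CPM. All have fewer than 3 NK UMIs and are pooled over the suffixes. Bcl11b is at 198, 118 and 17.9 CPM and Spi1 at 27.5, 69.2 and 139 CPM, while Tcf7 is at 325 and 318 CPM in the first pair of bands.

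Past the Cd3d limit lay 71 barcodes with at least 600 CPM of Cd3d and the same Cd3g and Myb limits, 65 of them in suffix 2, with a median of 13662 UMIs. Of 7305 genes 674 were at least 2-fold higher in members (9.23%) and 848 at least 2-fold lower (11.6%). These Cd3d-high barcodes carried markers of gamma-delta T cells. Of that list 7 genes passed the level filter, which a gene can pass through the Cd3d-high barcodes alone, as Il17a did with 1 UMI in members. At least 2-fold lower in members were 6 of the 7, with a median of -4.43 (-3.60 in suffix 2), and -4.51 for the 150 over the same genes. Within suffix 2, the gamma-delta factor gene Maf had 39.8 CPM in members, against 450.2 CPM in the Cd3d-high barcodes. Blk, a kinase of gamma-delta T cells, had 13.6 CPM, against 351 CPM. The chemokine receptor gene Ccr9 had 40.3 CPM in members, against 944 CPM.

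Most progenitor genes measured were higher in members than in the Cd3d-high barcodes. Here too a gene can pass the level filter through either group alone. Of 11 stem and progenitor regulators, 8 were at least 2-fold higher in members and 2 at least 2-fold lower, with a median of 3.76 (-2.43 to 5.07), and 3.63 for the 150. Within suffix 2 the median was 3.91, and the 6 Cd3d-high barcodes of suffix 1 gave -0.07. The lower pair was Mef2a, at 11.7 CPM in members against 63.0 CPM, and Irf8, at 1.73 CPM against 47.8 CPM. In suffix 2 Bcl11a had 47.1 CPM in members and 0 CPM in Cd3d-high barcodes, and Spi1 had 44.5 CPM, against 2.09 CPM. Fbp1 had 50.8 CPM in members, against 2.09 CPM, and Il2ra 232 CPM, against 10.4 CPM. The interferon-inducible membrane protein gene Ifitm3 had 351 CPM, against 7.31 CPM. Bcl11b was lower in members, at 174 CPM against 481 CPM.

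Past the Cd8b1 limit lay 81 barcodes with at least 3 UMIs of Cd8b1 and at least 400 CPM of Cd3g, with no limit on Myb or Cd3d. All were of suffix 2, with a median of 4954 UMIs, well under the 44654.5 UMIs of members of that suffix. Of 7240 genes 604 were at least 2-fold higher in members (8.34%) and 714 at least 2-fold lower (9.86%). Of the pre-T cell receptor and recombination genes, 23 of 28 measured were at least 2-fold lower in members, with a median of -1.89, and -1.87 for the 150. A gene can pass the level filter through 1 group alone, as Dntt did through the Cd8b1 barcodes. Within suffix 2, Rag1 had 16.2 CPM in members and 408 CPM in the Cd8b1 barcodes, and Ptcra had 4.71 CPM, against 123 CPM. Dntt, which encodes the enzyme that adds bases at receptor joins, had 0.523 CPM, against 139.5 CPM. The co-receptor gene Cd4 had 0 CPM in members of suffix 2, against 106 CPM.

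The direction turned for progenitor genes and for several members' markers. Of 11 stem and progenitor regulators, 10 were at least 2-fold higher in members than in the Cd8b1 barcodes and 1 at least 2-fold lower, with a median of 1.99, and 1.90 for the 150. Khdc1a had 58.6 CPM in members of suffix 2, against 2.35 CPM. Il2ra had 232 CPM, against 14.1 CPM, and Akr1c13 had 223 CPM, against 35.2 CPM. After thinning to 6000 UMIs, which left 180 members and 37 of the 81 Cd8b1 barcodes, Rag1 was held by 10.6% of members and 73.0% of Cd8b1 barcodes. Fbp1 was held by 34.7% of members without NK genes, 2.70% of Cd8b1 barcodes and 1.49% of Cd3d-high barcodes.

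**Figure D4:**
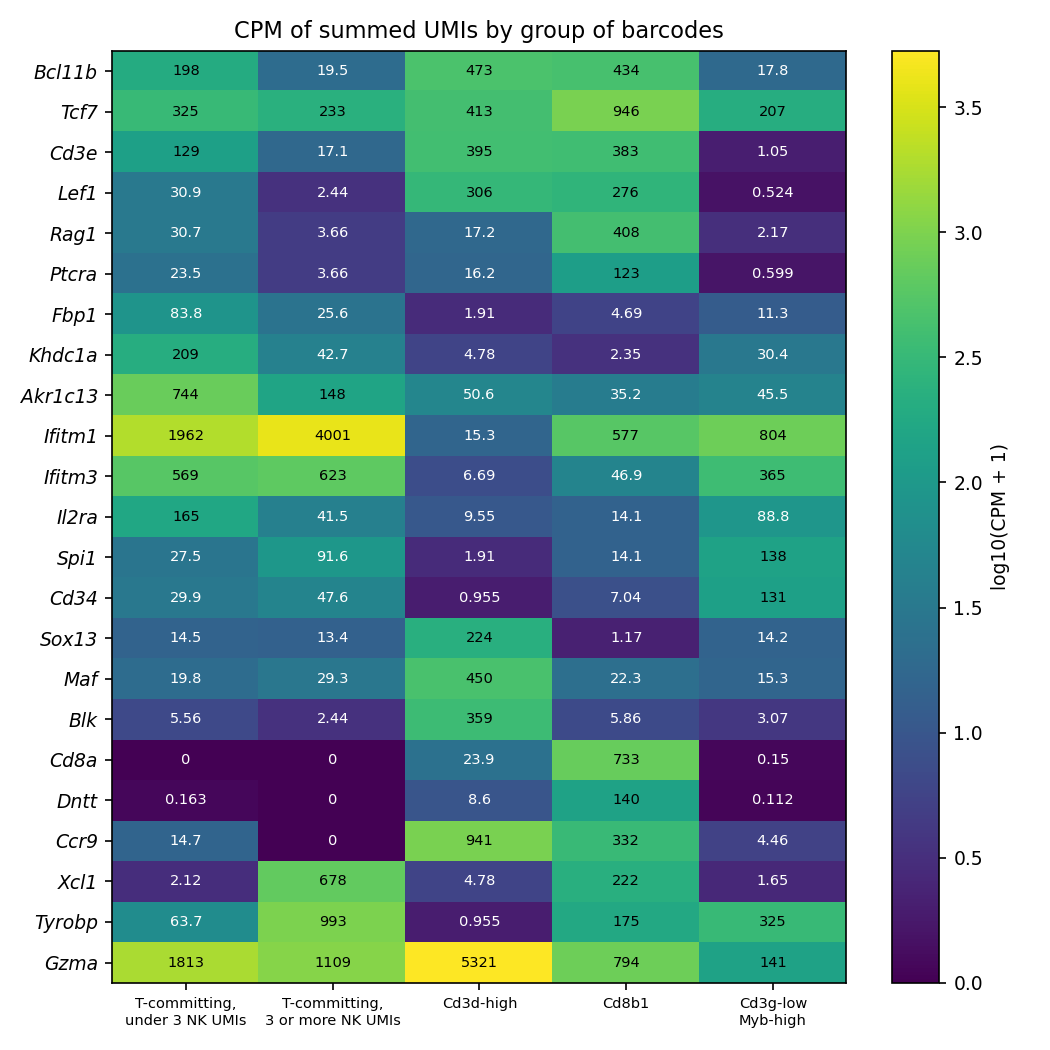
Rows are 23 genes and columns are members under 3 NK UMIs, NK-gene members, Cd3d-high, Cd8b1 and Cd3g-low Myb-high barcodes, with colour for log10(CPM + 1) and CPM printed in each field. Fbp1 is at 83.8 and 25.6 CPM in the member columns, against 1.91, 4.69 and 11.3 CPM in the others.

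Within the members, 58 held at least 2 UMIs of Spi1, 49 held 1 and 82 held none. Depth moved with this split, with medians of 44827.5 UMIs in the Spi1-high and 29748.5 in the Spi1-negative members, as did Scrublet calls, 11 against 2. NK genes moved with it too, since 19 of the 58 and 15 of the 82 were NK-gene members, and the part of depth and doublets was not tested. Of 5244 genes with a mean of at least 20 CPM, 28 were at least 2-fold higher in Spi1-high members (0.534%), Spi1 among them, and 10 at least 2-fold lower (0.191%). Without NK-gene members, 39 against 67 barcodes, the counts were 9 (0.172%) and 10 (0.191%).

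Several genes with high ratios were NK and myeloid genes, and those given here lay under 2-fold higher without NK-gene members. Xcl1 had 191 CPM in Spi1-high and 27.6 CPM in Spi1-negative members, and 1.07 and 2.09 CPM without NK-gene members. Since Xcl1 belongs to the NK-gene split, its low level there was fixed in advance. Tyrobp had 306 CPM, against 113 CPM, and 78.9 against 60.3 CPM without them. S100a6, a calcium-binding protein gene, had 273 CPM, against 121 CPM, and 74.1 against 68.3 CPM without them. The comparison is therefore described below without NK-gene members.

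Progenitor regulators other than Spi1 were somewhat higher in Spi1-high members. Of 23 listed 9 passed the level filter over all members, with a median log2 ratio of 0.75 (0.38 in suffix 1, 0.63 in suffix 2) and 1 past 2-fold. The median was 0.38 without Scrublet doublets. With Spi1 classes set after thinning, at least 1 UMI (29 barcodes) against 0 (151), it was 0.50 with an interval that held 0 (-0.17 to 1.57). Without NK-gene members 8 were measured, none past 2-fold, with a median of 0.43 (0.27 and 0.36 within suffixes). Bcl11a had 49.7 and 59.5 CPM in Spi1-high members of suffix 1 and 2, against 41.0 and 17.5 CPM in Spi1-negative ones, a log2 ratio of 0.61 (0.18 to 1.05). Kit had 46.4 and 54.9 CPM, against 30.7 and 42.9 CPM. The interval of Lyl1 held 0, with 96.9 and 91.6 CPM, against 81.9 and 71.5 CPM.

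Some T cell genes were lower in Spi1-high members, and others were not. Without NK-gene members, Bcl11b had 176 and 203 CPM in Spi1-high members of suffix 1 and 2, against 208 and 232 CPM in Spi1-negative ones, a log2 ratio of -0.21 (-0.41 to -0.01). Rag1 had 28.2 and 10.7 CPM, against 39.8 and 35.0 CPM. Ptcra had 12.9 CPM over both suffixes, against 33.1 CPM, a log2 ratio of -1.36 (-2.09 to -0.69). Lef1 differed mainly in suffix 2, with 33.9 and 4.58 CPM, against 41.0 and 49.3 CPM. Over the list of pre-T cell receptor and recombination genes 2 of 19 were at least 2-fold lower and 5 had a ratio above 1, with a median of -0.17 (-0.56 to 0.01). Of 19 T-lineage regulators none passed 2-fold and 7 had a ratio above 1, with a median of -0.09 (-0.23 to 0.07).

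Other genes differed in both directions. Gzma had 1479 and 385 CPM in Spi1-high members, against 2788 and 572 CPM. Il2ra had 84.5 and 357 CPM, against 149 and 167 CPM, so it was lower in Spi1-high members of suffix 1 and higher in those of suffix 2. Gata3 was higher in both, at 84.5 and 71.7 CPM, against 60.3 and 50.8 CPM. The replication gene Rrm2 had 161 and 87.0 CPM, against 192 and 219 CPM, and S phase genes had a median of -0.25 over 41 measured genes. G2/M genes had a median of 0.16.

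UMIs of Spi1 and Bcl11b were found together in the same barcodes. For this count 1 Spi1 UMI sufficed, and 49 of the 189 members held just 1. The part of free RNA and doublets in joint detection was not tested. Without NK-gene members, Bcl11b was detected in 74 of 83 barcodes with a Spi1 UMI (89.2%, 80.4 to 94.9%) and in 63 of 67 without (94.0%, 85.4 to 98.3%). In Cd3g-low barcodes Bcl11b was detected in 102 of 801 with a Spi1 UMI (12.7%) and in 10 of 56 without. Thinned to 6000 UMIs, Spi1 was held by 11.8% of members without NK genes, 56.9% of Cd3g-low barcodes and 1.49% of Cd3d-high barcodes. At that depth Bcl11b was held by 10 of 17 members with a Spi1 UMI and 83 of 127 without.

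**Figure D5:**
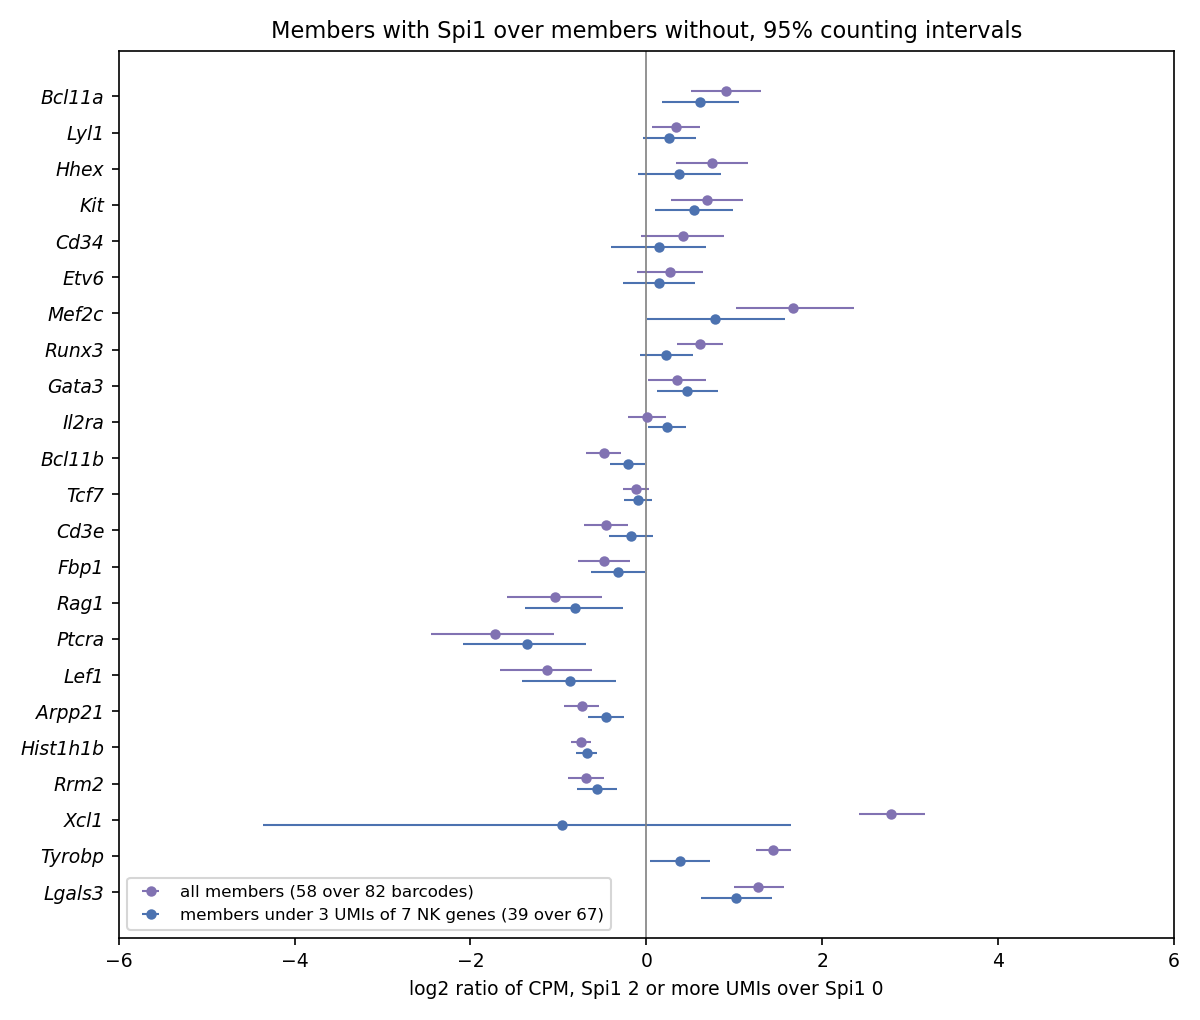
The x axis is the log2 ratio of CPM in Spi1-high over Spi1-negative members, for all members (58 over 82) and for members under 3 NK UMIs (39 over 67), with 95% counting intervals. Xcl1 and Tyrobp lie far right for all members and near or left of 0.5 without NK-gene members, and Ptcra and Rag1 lie left of 0 in both. Xcl1 belongs to the NK-gene split, which keeps its level low without those members.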

How the data were processed

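The deposited file is 1 matrix of raw UMI counts for 22032 genes and 6057 barcodes of 2 libraries, made by the authors with Cell Ranger 3.0.2, per the submitters' processing notes, which also name STAR and GRCm38. Suffixes 1 and 2 were kept apart because no label assigns them to a stage. Counts were summed per group and scaled to CPM. Ratios of summed counts have conditional exact 95% intervals, and a count of 0 was set at a floor of 3 counts. Shares have exact Clopper-Pearson intervals. Genes entered a comparison at a mean of at least 10 CPM (20 CPM for splits within the members), which a gene high in 1 group alone can reach. The spread of a list's median is an order-statistic interval over its genes. Thinning drew 6000 UMIs per barcode and left out shallower ones. Doublets were called per suffix with Scrublet in scanpy 1.11.5 (9 and 90 barcodes) and not removed, except as an alternative. Numerical work used Python 3.11.15, numpy 2.4.6 and scipy 1.17.1.

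The members and the 27 gene lists were chosen with earlier results of these data known. Named genes were the genes of the rule, measured members of the regulator, receptor, Notch and progenitor lists, the most abundant of the other lists, the reporters, and the 14 highest and 14 lowest ratios against Cd3g-low barcodes (8 and 8 in other comparisons) with the same direction within suffixes. Summed counts of T-committing and Cd3g-low barcodes were simulated with counting error alone, for 7170 genes of which 200 were changed. Of the intervals, 95.0% held the true ratio. The simulation had no spread between barcodes, so it cannot show how the intervals hold where such spread is present. Alternatives changed the barcode filters, thresholds, doublets, suffix, scaling, depth, weighting, low-level filter and Spi1 classes. T cell receptor chain genes were not analysed here, and 1 locus and its reporter are not reported.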

Additional observations from a re-analysis of the deposited data

Results flagged for a closer look

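Satb1, which encodes a chromatin organiser of thymocytes, differed in opposite directions within the suffixes. It was at 59.3 CPM in T-committing and 47.7 CPM in Cd3g-low barcodes of suffix 1, a log2 ratio of 0.31. In suffix 2 it was at 75.9 CPM in T-committing and 98.6 CPM in Cd3g-low barcodes, a log2 ratio of -0.38. Neither ratio passed 2-fold, and the difference between the suffixes was not tested.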

How the results depend on the processing

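Of 142 recomputed values, 113 stayed within their interval or within 1.5 times the count and 29 moved. No value whose interval left out 0 turned direction. The median of T-lineage regulators, 0.03, was -0.02 at a Myb limit of 100 CPM and -0.01 as a mean of per-barcode CPM. The medians of T-lineage regulators and of stem and progenitor regulators against Cd3g-low barcodes were among the 113 in all 18 of their settings. The log2 ratio of summed G2/M genes, 0.55, became 0.51 without the epithelial limit, 0.58 without Scrublet doublets, 0.61 and 0.48 at Cd3g limits of 800 and 200 CPM, 0.60 and 0.49 at Myb limits of 200 and 100 CPM, 0.54 at Cd3d under 400 CPM, 0.30 and 0.77 within suffix 1 and suffix 2, 0.53 with median-of-ratios scaling and 0.59 as a mean of per-barcode CPM. It was 0.63 without NK-gene barcodes and 0.52 without barcodes shared by the suffixes, both chosen after seeing the data. Suffix 2 held 44 of the 189 members, and a limit on all NK/ILC1 and ILC2 markers, which include genes that members express, left 4, so no other value is given for it. The 115 higher genes became 1092 with no filter on low genes and 30 at a mean of 50 CPM, and the 141 lower genes became 982 and 38, and 272 after thinning. The median of progenitor regulators in Spi1-high over Spi1-negative members, 0.75, was 0.93 and 0.42 at Cd3g limits of 200 and 800 CPM, 0.38 without doublets, 0.38 within suffix 1, 0.43 without NK-gene barcodes, 0.50 with Spi1 classes set after thinning and 0.34 at a mean of 50 CPM. The 37 genes other than Spi1 that differed 2-fold there became 19 without doublets, 18 without NK-gene barcodes, 207 within suffix 2, 366 after thinning, 503 with Spi1 classes set after thinning, 66 by mean CPM, 1155 with no filter and 12 at a mean of 50 CPM. Beyond fewer barcodes or genes in an alternative, the cause of these shifts was not tested. Depth limits the Spi1 split, since barcodes with no Spi1 UMI were also shallower at the median. With classes set after thinning, at least 1 Spi1 UMI against 0, the interval of the 0.50 was -0.17 to 1.57 and held 0. No paired analysis was possible because each stage has 1 library and no suffix is tied to a stage.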
